A study of Mus musculus with 6 samples.

Results

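Transcripts of the mitochondrial ribosome and of the mitochondrial protein import machinery were compared between lipopolysaccharide-treated and untreated RAW 264.7 cells, a mouse macrophage line. The genes were chosen by name: a feature was taken where its single gene symbol in the platform annotation began with Mrpl or Mrps and a number (proteins of the large and small ribosomal subunit), or with Timm or Tomm and a digit (translocases of the inner and outer mitochondrial membrane). The pattern found 93 of 16281 features, which represent 81 of 10698 named genes. Of the 81 genes, 62 belong to the ribosome (41 large subunit, 21 small subunit) and 19 to import (12 inner membrane, 7 outer membrane).

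The treated group received 100 ng/ml lipopolysaccharide (LPS) together with 100 pM LPS-binding protein, the serum protein that delivers LPS to its receptor, and the control group received neither. Both groups come from a single transformed line, were cultured for 8 h and gave total RNA. Each of 6 two-colour arrays carried RNA of both groups. In each of 3 numbered sets, 1 array had the treated RNA in the Cy5 dye (a Cy5 array in what follows) and 1 in the Cy3 dye (a Cy3 array). Whether each set came from its own culture is not stated in the labels. Every p-value below therefore compares a mean ratio with a spread over these sets or arrays, and that spread could be purely technical. The labels write the line as RAW 264.7 in most places and as RAW 264.4 in some.

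Mitochondria keep a small genome of their own that encodes a few subunits of the respiratory chain, and a dedicated ribosome translates those messages. All proteins of that ribosome are encoded in the nucleus, made in the cytosol and carried into the organelle through the TOM complex of the outer membrane and the TIM complexes of the inner membrane. Activated macrophages are known for remodelling their mitochondrial metabolism.

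Values are log2 ratios turned to treated over untreated, and a value of exactly 0 was taken as not measured. Without such values, the arrays' medians lay between -0.021 and 0.0087. Across features, which are not independent replicates, turned ratios correlated at r of 0.705 to 0.899 (Pearson) between arrays that shared an orientation and at 0.428 to 0.80 between those that did not. The numerator of the ratio is not given in the table. Cy5 over Cy3 was taken as likely, from the roles that the labels give to the dyes, and the opposite reading would turn every sign. In the direction used, the LPS-inducible cytokine gene Tnf stood at 1.89 ± 0.19 (SD, n = 3 sets). The labelled cell type could not be checked by expression level, since a ratio holds none. A tested ratio was present for 7 of 8 macrophage markers. It was also present for 7 of 8 markers of T cells, B cells and fibroblasts, so its presence does not tell these cell types apart. Ratios are also relative to the RNA labelled on each array, so that a change in RNA per cell and a change in the share of a transcript cannot be told apart.

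The mitochondrial ribosome and import genes moved in both directions, and few of their changes were large. Of the 79 member genes with enough values for the test, 13 rose and 16 fell at an adjusted p under 0.05 (limma, Benjamini-Hochberg over all 10088 genes), and 50 did not pass. That is 36.7% of the members, beside 34.2% of all genes tested (17.3% higher and 16.8% lower), so the share of members called was near the background. The median size of change, called or not, was 0.118 in the members and 0.115 in all genes, but large changes were fewer in the members. Member means ran from -0.56 to 0.57, and 2 of 79 (2.53%) lay beyond 0.5 in either direction, beside 10.6% of all genes. The median size of the called changes was 0.22 in the members and 0.35 over all genes called. The median of all members was -0.03, against -0.01 for all genes. Without set 3, 2 members were called higher and 6 lower (21.3% of all genes tested passed), and 8 of the 29 calls remained: Mrps6, Mrps34, Mrpl12, Mrpl18, Mrpl30, Mrpl34, Mrpl42 and Mrpl52. Leaving out set 1 gave 7 higher and 15 lower (34.1% of all genes tested passed), and leaving out set 2 gave 8 and 10 (36.4%).

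**Figure D1:**
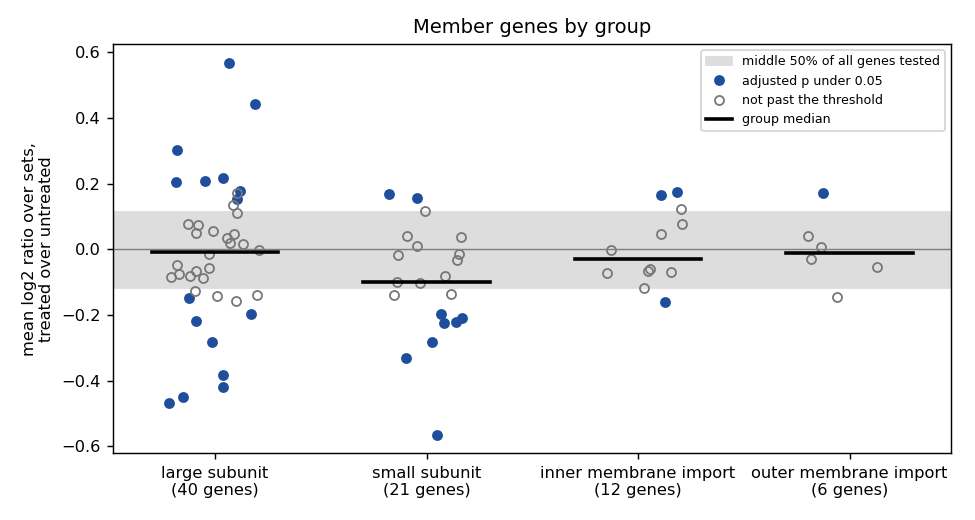
Mean log2 ratio of each member gene (vertical axis, treated over untreated, mean over sets) in the 4 groups (horizontal axis; points are spread sideways at random). Filled points passed an adjusted p of 0.05, open points did not, black bars are group medians and the grey band is the middle 50% of all 10088 genes; the large subunit holds the 2 highest points (0.57 and 0.44) and the small subunit the lowest (-0.56).

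The largest fall and the largest rise were of the same size and both came from the ribosome. Mrps6, a small-subunit protein with a bacterial counterpart, stood at -0.64, -0.70 and -0.56 in sets 1 to 3 on Cy5 arrays, and at -0.63, -0.47 and -0.38 on Cy3 arrays. All 6 arrays were thus lower, and the orientations overlapped. The mean was -0.56 ± 0.08 (SD, n = 3 sets), a 1.48-fold fall (limma's adjusted p = 0.000526). Mrpl30, a large-subunit protein, stood at 0.55, 0.28 and 0.30 on Cy5 arrays and at 0.82, 0.73 and 0.74 on Cy3 arrays. All arrays were higher, but the orientations did not overlap. Its mean was 0.57 ± 0.10, a 1.48-fold rise (adjusted p = 0.000718). The next in size were Mrpl34 (-0.47 ± 0.04) and Mrpl52 (0.44 ± 0.11).

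The stretches of 250 bases before the annotated starts of these 4 genes are shown because they head the members that moved in opposite directions. They were taken from RefSeq (GRCm38.p6), which gave a promoter for 73 of the 81 member genes. Capitals mark matches to CCGGAAG, the core bound by ETS factors such as GABP, on either strand (CTTCCGG on the other). The positions are chr16:92058086-92058335 for Mrps6 and chr8:71464676-71464925 for Mrpl34, both on the plus strand. Those of the genes that rose are chr1:37890227-37890476 for Mrpl30 and chr14:54426659-54426908 for Mrpl52, also on the plus strand.
Mrps6: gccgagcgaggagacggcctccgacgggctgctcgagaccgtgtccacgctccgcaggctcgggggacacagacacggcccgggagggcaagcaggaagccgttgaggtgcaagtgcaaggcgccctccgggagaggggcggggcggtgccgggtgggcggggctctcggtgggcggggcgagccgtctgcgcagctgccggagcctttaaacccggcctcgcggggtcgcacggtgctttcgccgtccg
Mrpl34: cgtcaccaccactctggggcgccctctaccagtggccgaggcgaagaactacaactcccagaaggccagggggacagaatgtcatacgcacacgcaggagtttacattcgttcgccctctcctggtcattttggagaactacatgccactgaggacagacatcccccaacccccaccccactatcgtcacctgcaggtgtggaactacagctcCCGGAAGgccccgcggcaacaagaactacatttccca
Mrpl30: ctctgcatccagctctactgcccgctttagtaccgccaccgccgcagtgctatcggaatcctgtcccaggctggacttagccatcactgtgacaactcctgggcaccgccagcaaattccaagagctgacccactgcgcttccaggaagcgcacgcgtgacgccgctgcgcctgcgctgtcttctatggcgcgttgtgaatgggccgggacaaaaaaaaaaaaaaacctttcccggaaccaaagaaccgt
Mrpl52: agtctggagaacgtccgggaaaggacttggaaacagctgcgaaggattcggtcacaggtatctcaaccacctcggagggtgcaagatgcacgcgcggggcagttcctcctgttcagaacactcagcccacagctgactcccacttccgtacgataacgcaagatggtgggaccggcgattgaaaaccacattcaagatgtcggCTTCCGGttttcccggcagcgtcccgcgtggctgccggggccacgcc
A match thus stood in 1 of the 2 genes that fell (Mrpl34, starting 37 bases before the gene's start) and in 1 of the 2 that rose (Mrpl52, 47 bases before). Over all members in the fit, 17 of 72 stretches (23.6%) held this motif, beside 10.4% of the 8027 genes tested with a promoter and 7.07% of all 27025 promoters in the table. The share was 25% (3 of 12) in members called higher, 26.7% (4 of 15) in members called lower and 22.2% (10 of 45) in members not called. The shares of these groups thus lay close together, and all were above that of the genes tested. Other motifs known from genes of mitochondrial proteins or of growth were searched on both strands as well. GCGCATG, the core of the NRF1 site, stood in 8 of the 72 stretches (11.1%, beside 4.80% of the genes tested), AAGATGGC of YY1 in 3 (4.17%, beside 1.71%) and the E-box CACGTG in 5 (6.94%, beside 7.75%). The ETS and YY1 motifs can share the letters AAG where they adjoin. A match describes letters in this window and does not show that a factor binds there.

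In the large subunit, 8 of 40 tested genes rose and 8 fell (40.0% called, beside 34.2% of all genes, of which 17.3% higher and 16.8% lower; median -0.01). Behind Mrpl30, Mrpl52 stood at 0.31, 0.05 and 0.18 on Cy5 arrays and at 0.81, 0.67 and 0.63 on Cy3 arrays. All arrays were higher, with a gap between the orientations, and the adjusted p was 0.00199. On the Cy5 arrays alone its mean was 0.18 (limma's adjusted p = 0.112). Mrpl13 averaged 0.30 ± 0.12 (adjusted p = 0.0097), with 0.27, -0.10 and 0.14 in the first orientation and 0.56, 0.47 and 0.49 in the second. Its single negative value came from the Cy5 array of set 2.

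The other large-subunit rises in this range were smaller and differed in how steady they were. Mrpl24 stood at 0.22, 0.16 and 0.26 on Cy5 arrays and at 0.26, 0.16 and 0.25 on Cy3 arrays, a mean of 0.22 ± 0.05 (adjusted p = 0.0141) with full overlap of the orientations. A second Mrpl24 probe, measured in 2 sets and not used for the gene, stood at 0.02 and 0.02 on Cy5 arrays and at 0.44 and 0.34 on Cy3 arrays, with a gap between the orientations. Mrpl1, which belongs to the mobile stalk at the tRNA exit side, averaged 0.20 ± 0.03 (adjusted p = 0.0149). It stood at 0.17, 0.08 and 0.21 on Cy5 arrays and at 0.19, 0.32 and 0.25 on Cy3 arrays. Its 2 probes gave means of 0.14 and 0.27. Mrpl20 stood at 0.05, -0.05 and -0.04 on Cy5 arrays, but at 0.43, 0.52 and 0.33 on Cy3 arrays. Its mean of 0.21 ± 0.06 (adjusted p = 0.0184) therefore rests on 1 orientation, and its 2 probes gave 0.05 and 0.36. Mrpl44, which has a fold like that of RNase III, stood at 0.18, 0.26 and 0.35 in the first orientation and at -0.02, 0.13 and 0.18 in the second (mean 0.18 ± 0.09, adjusted p = 0.0484). The remaining rise of the large subunit was Mrpl27 at 0.15 ± 0.01, and its call was lost in 4 of 12 alternative analyses.

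The largest falls of the large subunit were seen in both orientations. Mrpl34 stood at -0.39, -0.34 and -0.29 on Cy5 arrays and at -0.63, -0.60 and -0.57 on Cy3 arrays (adjusted p = 0.000678). Mrpl18, a protein with a bacterial counterpart, stood at -0.47, -0.59 and -0.63 and at -0.33, -0.31 and -0.36 (mean -0.45 ± 0.05, 1.36-fold, adjusted p = 0.000898). Both genes were lower on 6 of 6 arrays, although the dye with the larger change differed between them. Mrpl12, the stalk protein that recruits translation factors, was read by 2 probes with means of -0.43 and -0.41. Its values were -0.54, -0.66 and -0.55 on Cy5 arrays and -0.19, -0.34 and -0.23 on Cy3 arrays. The mean was -0.42 ± 0.07 (1.34-fold, adjusted p = 0.00149), and the 2 probes carry different accessions in the annotation. On the Cy3 arrays alone, its adjusted p was 0.0527.

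Mrpl42 and Mrpl43 are found in the mitochondrial ribosome and have no bacterial counterpart. Mrpl42 stood at -0.41, -0.52 and -0.55 and, on Cy3 arrays, at -0.27, -0.24 and -0.31 (mean -0.38 ± 0.05, adjusted p = 0.00155). Mrpl43 stood at -0.17, -0.31 and -0.23 and at -0.25, -0.43 and -0.30 (mean -0.28 ± 0.08, adjusted p = 0.00817). Every array was lower for both genes, and the orientations of Mrpl43 overlapped. Mrpl55 (-0.22 ± 0.11), Mrpl40 (-0.20 ± 0.09) and Mrpl9 (-0.15 ± 0.02) complete the falls of the large subunit. The call of Mrpl9 was lost in 7 of 12 alternative analyses. Mrpl40 passed at an adjusted p of 0.0315 with -0.34, -0.69 and -0.37 in the first orientation and 0.02, 0.09 and 0.10 in the second, so its direction differed between the dyes.

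**Figure D2:**
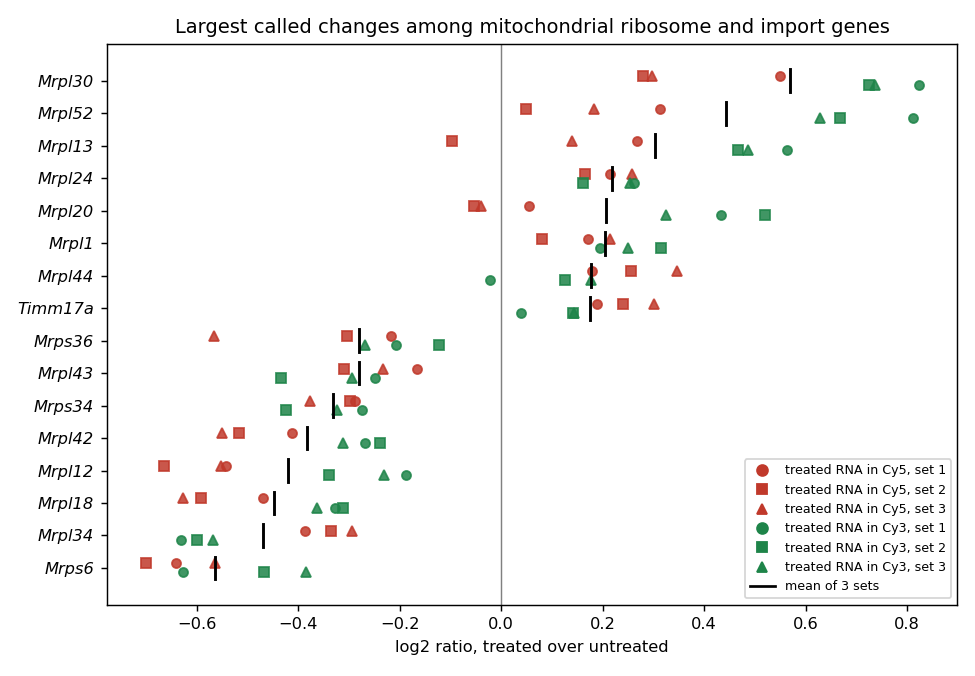
Log2 ratio of treated over untreated (horizontal axis) on each array for the 8 largest rises and 8 largest falls among called member genes; red symbols are Cy5 arrays, green are Cy3 arrays, symbol shapes are sets and black bars the means of 3 sets. Mrps6 lies below 0 on all arrays (-0.70 to -0.38), while Mrpl20 lies near 0 in red (-0.05 to 0.05) and above it in green (0.33 to 0.52).

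Of the 21 tested genes named for the small subunit 7 fell and 2 rose (42.9% called, beside 34.2% of all genes, of which 16.8% lower), with a median of -0.10, beside -0.01 for all genes. The products of Mrps18a and Mrps30 are now placed in the large subunit and that of Mrps36 outside the ribosome. Without these 3 genes, a recount made after the values were seen, 5 of 18 fell and 2 rose (38.9% called, median -0.06). Mrps34, a protein of the mitochondrial small subunit with no bacterial counterpart, had the next lowest mean after Mrps6. It stood at -0.29, -0.30 and -0.38 on Cy5 arrays and at -0.27, -0.43 and -0.32 on Cy3 arrays (mean -0.33 ± 0.04, adjusted p = 0.00269). The orientations overlapped completely. Mrps36 stood at -0.22, -0.30 and -0.57 and at -0.21, -0.12 and -0.27 (mean -0.28 ± 0.12, adjusted p = 0.0136). Its product is now assigned to the alpha-ketoglutarate dehydrogenase complex. Mrps14, Mrps15, Mrps18a and Mrps12 also fell, with means of -0.22, -0.22, -0.21 and -0.20. Of these, Mrps15 had a mean of -0.43 on Cy5 arrays and of -0.01 on Cy3 arrays.

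The 2 small-subunit rises were weak. Mrps18b stood at 0.29, 0.43 and 0.50 on Cy5 arrays but at 0.03, -0.11 and -0.14 on Cy3 arrays. Its mean of 0.17 ± 0.01 (adjusted p = 0.0292) thus joins orientations that did not overlap, and the small SD over sets hides that gap. Mrps5 was alike in both, at 0.22, 0.14 and 0.12 and at 0.22, 0.13 and 0.11 (mean 0.16 ± 0.06, adjusted p = 0.0479), but its call was lost in 8 of 12 alternative analyses. Mrps18a and Mrps18b encode relatives of the same bacterial protein. Their means had opposite signs (-0.21 and 0.17); the difference between them was not tested.

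The names also separate proteins with a bacterial counterpart, numbered up to 36 in the large and up to 21 in the small subunit, from those gained by the mitochondrial ribosome; this split was chosen after the values were seen. Of 36 tested genes of the first kind 8 rose and 9 fell (47.2% called, median -0.04). Of 25 of the second kind, counting Mrps36 whose product is now placed outside the ribosome, 2 rose and 6 fell (32.0% called, median -0.05). The share over all genes, 34.2%, lies between these. The medians of both kinds were close together, and all members past 0.5 in size, Mrps6 and Mrpl30, were of the first kind. Most of the ribosome, 36 of 61 genes, did not pass the test. Among them was Mrpl58, which releases peptides from stalled ribosomes and whose 2 probes gave -0.17 and -0.14 (gene mean -0.16 ± 0.07, adjusted p = 0.058).

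Few import genes passed. Of 18 tested, 3 rose and 1 fell (22.2% called, beside 34.2% of all genes), and means ran from -0.16 to 0.18. Timm17a, a channel subunit of the TIM23 complex that takes up proteins with a cleavable presequence, stood at 0.19, 0.24 and 0.30 on Cy5 arrays and at 0.04, 0.14 and 0.14 on Cy3 arrays. It was higher on 6 of 6 arrays, with a mean of 0.18 ± 0.06 (1.13-fold, adjusted p = 0.0334). Timm23, the partner channel subunit, was even across arrays at 0.16, 0.11 and 0.10 and at 0.08, 0.16 and 0.14, and had a mean of 0.12 ± 0.01 that did not pass (adjusted p = 0.0747). Timm17b, the other form of Timm17a, did not pass (adjusted p = 0.992) and stood at 0.10 on Cy5 and -0.10 on Cy3 arrays. Timm44, which tethers the import motor, averaged -0.06 ± 0.02. Timm21, which links the inner and outer complexes, averaged -0.07 ± 0.09.

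The small TIM proteins chaperone hydrophobic precursors across the space between the membranes. Timm9 stood at -0.21, -0.15 and -0.06 and, on Cy3 arrays, at -0.24, -0.15 and -0.14 (mean -0.16 ± 0.06, adjusted p = 0.049). All arrays were lower, but the call was lost in 8 of 12 alternative analyses. Its partner in the hexameric chaperone, Timm10, averaged 0.05 ± 0.01 (adjusted p = 0.445), with -0.05 in the first orientation and 0.15 in the second. Timm10b, a further small TIM protein, passed barely at 0.16 ± 0.07 (adjusted p = 0.0499) with means of 0.06 and 0.26 in the orientations. Timm13 and Timm8a1, which form a second chaperone pair, averaged -0.12 ± 0.08 and -0.07 ± 0.05. Timm8a1 ran the opposite way in each dye: -0.25, -0.36 and -0.38 on Cy5 arrays, against 0.18, 0.28 and 0.13 on Cy3 arrays. Timm8b was read by 2 features listed under 1 accession. The means were 0.06 and 0.09, but the first ran from -0.66 to 0.59 over the arrays and the second from -0.01 to 0.18. Timm22, the channel for carrier proteins, averaged -0.07 ± 0.09.

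At the outer membrane, 1 of 6 genes passed. Tomm70a, the receptor for carrier precursors that is also known as a docking site in antiviral signalling, stood at 0.01, -0.06 and 0.01 on Cy5 arrays and at 0.39, 0.44 and 0.23 on Cy3 arrays. Its rise of 0.17 ± 0.04 (adjusted p = 0.032) came from 1 orientation, and the call was lost when any 1 set was left out. Tomm40, the pore of the complex, stood at -0.09, -0.27 and -0.21 and at -0.06, -0.17 and -0.09 (mean -0.15 ± 0.07, adjusted p = 0.0684), and its 2 probes gave -0.12 and -0.18. The average of the Tomm40 probes was lower on all arrays, but neither probe was. The first stood at 0.02 on the Cy5 array of set 1 and the second at 0.10 on the Cy3 array of set 1. Tomm40 passed when the arrays were used as 6 replicates (limma's adjusted p = 0.0232). With the set number added as a replicate block it passed as well (limma's adjusted p = 0.0278). The labels do not say whether the 2 arrays of a set hold separate extracts. The receptor Tomm20 averaged -0.05 over the 2 sets in which it was measured, and the small subunits Tomm6 (2 sets) and Tomm7 averaged -0.03 and 0.01. Tomm34, a cytosolic cochaperone of precursors, averaged 0.04 ± 0.02.

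Set against each other, ribosome genes were called in 41.0% of cases (10 higher, 15 lower, of 61) and import genes in 22.2%, beside 34.2% of all genes (17.3% higher, 16.8% lower). The median size of change was 0.14 in ribosome genes, 0.07 in import genes and 0.12 in all genes. The group medians were -0.05 for the ribosome and -0.02 for import. By set, the ribosome median minus the import median was -0.04, -0.07 and 0.03, so the direction differed in set 3. By array, the ribosome median was the lower on 6 of 6 arrays, by 0.01 to 0.20. Taken over single probes in place of genes, the difference turned to 0.0066. The difference of -0.03 between the medians was smaller than its spread over sets, and no test was made of it, because the members were chosen by name with earlier results known.

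The dyes gave different medians for the members. The median of members was -0.09 on Cy5 arrays and -0.01 on Cy3 arrays, and the median difference between orientations was -0.10, beside 0.0033 over all genes, -0.10 in the respiratory chain and -0.085 in cytosolic ribosomal proteins. In 15 of 79 members (19.0%, beside 11.4% of all genes) all measured arrays of 1 orientation had the opposite sign from those of the other, and 11 of the 15 were lower on Cy5 arrays. A dye term passed in 6 members (7.59%, beside 3.38% of all genes): Mrpl38, Timm8a1, Mrpl32, Mrpl20, Mrps18b and Mrpl52. Mrpl38 showed the pattern clearly, at 0.17, 0.19 and 0.18 on Cy5 arrays and at -0.37, -0.32 and -0.25 on Cy3 arrays (mean -0.07, adjusted p = 0.312). Of all 79 members 27 had the same sign on every measured array, beside 33.8% of all genes. Of the 29 called members, 21 (72.4%) had the same sign on all arrays, against 84.0% of all called genes. The 8 others were Mrpl13, Mrpl20, Mrpl40, Mrpl44, Mrps15, Mrps18b, Timm10b and Tomm70a. Each set mean holds 1 array of each orientation, so a dye effect of equal size in both cancels in it.

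**Figure D3:**
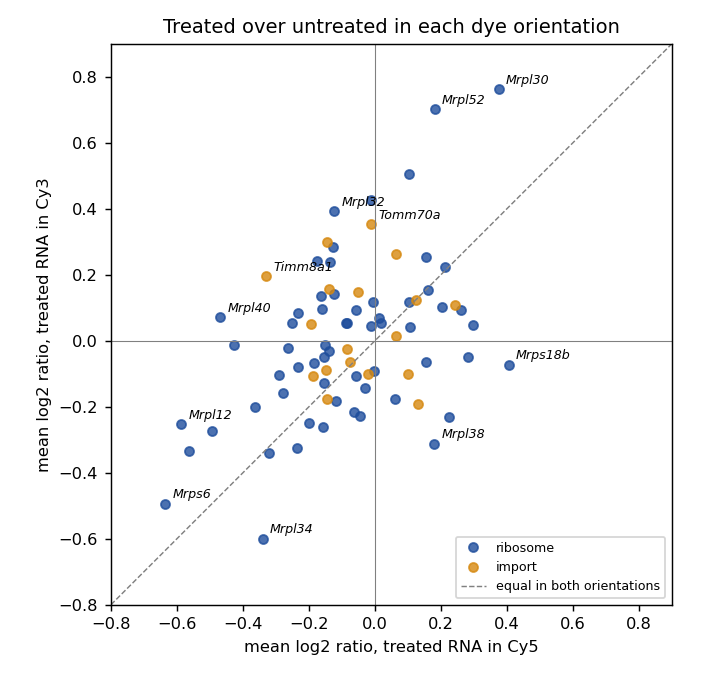
Mean log2 ratio of each member gene over Cy5 arrays (horizontal axis) against Cy3 arrays (vertical axis); blue points are ribosome genes, orange points import genes, and the dashed line marks equal values. Mrps6 (-0.64 and -0.49) lies near the line, whereas Timm8a1 (-0.33 and 0.20) and Mrpl38 (0.18 and -0.31) lie in the quadrants where the dyes disagree.

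The members were set beside the cytosolic ribosome and the respiratory chain, whose subunits encoded in the mitochondrial genome are made by the mitochondrial ribosome. The respiratory chain genes compared here were chosen by names of nuclear genes, so none of those subunits is among them. Of 36 tested cytosolic ribosomal protein genes 1 rose and 0 fell (2.78% called, beside 34.2% of all genes, median 0.03, median size 0.04). The 1 that rose was Rps28 (0.18 ± 0.06), with means of 0.02 on Cy5 arrays and 0.34 on Cy3 arrays. Many genes of that group had values of exactly 0, since 36 of 69 could be tested, against 79 of 81 members. Of 59 genes of the respiratory chain and ATP synthase 10 fell and 0 rose (16.9% called, median -0.09), beside 16.8% lower and 17.3% higher over all genes. Sdhb, the iron-sulphur subunit of complex II, had the lowest mean of that group (-0.23 ± 0.04). Neither group thus held changes as large in both directions as the mitochondrial ribosome, whose means spread from -0.56 to 0.57; this difference was not tested.

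**Figure D4:**
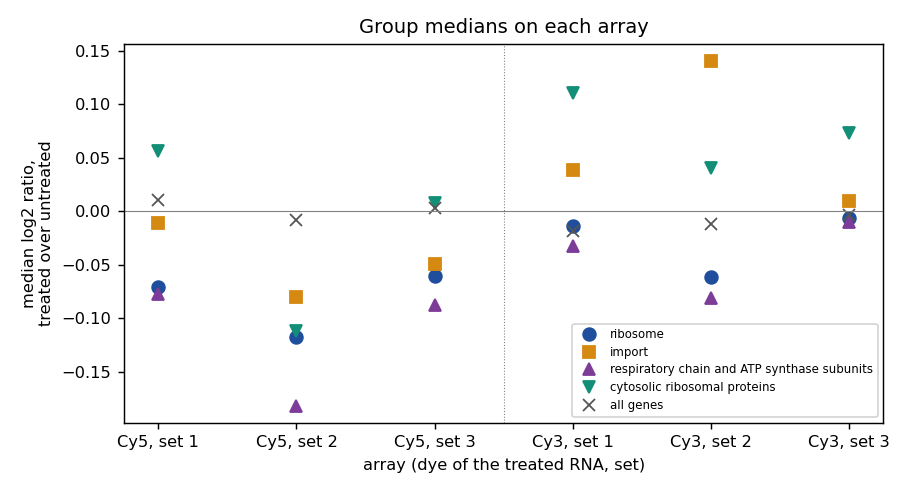
Median log2 ratio of treated over untreated (vertical axis) on each of the 6 arrays (horizontal axis, named by the dye of the treated RNA and the set) for ribosome genes, import genes, cytosolic ribosomal proteins, the respiratory chain and all genes. The ribosome median lies below the import median on every array, from -0.12 to -0.01 for the ribosome and from -0.08 to 0.14 for import.

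Genes that work with the mitochondrial ribosome but carry other names gave a mixed picture. Over all genes tested, 34.2% were called, 17.3% higher and 16.8% lower. Among ribosomal proteins outside the name pattern, Ptcd3 fell (-0.19 ± 0.06, adjusted p = 0.0287), while Dap3 and Chchd1 stood at -0.07 and -0.06. Of 4 mitochondrial translation factors and mRNA-binding proteins tested, 1 rose: Slirp, which stabilises mitochondrial mRNAs, at 0.50 ± 0.11 (adjusted p = 0.00126) with 0.46 and 0.54 in the orientations. Of 10 assembly and rRNA modification genes 1 rose and 2 fell (30.0% called). Mrm1, a methyltransferase of the large mitochondrial rRNA, stood at -0.39 ± 0.09 and Noa1, a GTPase needed for the small subunit, at -0.32 ± 0.06. Nsun4 stood at 0.17 ± 0.07, with means of 0.36 on Cy5 arrays and -0.02 on Cy3 arrays. Of 8 mitochondrial tRNA charging genes 1 rose, Fars2 (0.28 ± 0.09), and 3 fell, led by Qrsl1 (-0.38 ± 0.06) and Cars2 (-0.29 ± 0.07). The medians of the last 2 lists were -0.09 and -0.11.

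Of 8 genes for mitochondrial DNA upkeep and transcription, 1 rose (Tk2, 0.19 ± 0.05) and 1 fell (Polg, the DNA polymerase, -0.26 ± 0.03). Tfam, the packaging and transcription factor of that DNA, stood at -0.10 ± 0.05 (adjusted p = 0.155). Of 22 import partners outside the name pattern 2 rose and 3 fell (22.7% called), with a median of 0.0061. The cytosolic chaperone genes Hspa8 (0.30 ± 0.03) and Dnaja1 (0.20 ± 0.01), which hold precursors open, rose. Gfer, an oxidase of the pathway that folds small TIM proteins, fell (-0.26 ± 0.06), as did the motor subunit gene Dnajc19 (-0.22 ± 0.10) and the peptidase gene Mipep. Of 13 matrix and inner membrane chaperones and proteases 1 rose and 5 fell (46.2% called), the falls led by Htra2 (-0.30 ± 0.07) and Oma1 (-0.28 ± 0.05). The rise was Yme1l1 (0.29 ± 0.07), with means of 0.06 on Cy5 arrays and 0.52 on Cy3 arrays.

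Regulators of mitochondrial biogenesis included the largest change in the 10 lists examined. Of 12 tested 3 rose and 5 fell (66.7% called, beside 34.2% of all genes). Myc, a transcription factor of growth, rose by 3.66 ± 0.46, its partner Max by 0.79 ± 0.06, and the ETS factor subunit Gabpa by 0.30 ± 0.11 (adjusted p = 0.00914). Gabpb1, a further GABP subunit gene in this list, stood at -0.18 ± 0.14 and did not pass (limma's adjusted p = 0.0804). Nrf1, a factor of many nuclear genes for mitochondrial proteins, stood at -0.43 ± 0.05 (adjusted p = 0.00103), with -0.41 and -0.45 in the orientations. The mitochondrial deacetylase gene Sirt3 stood at -0.29 ± 0.03. The other falls were Sirt1, Creb1 and Esrra.

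Member coverage was high. Exact zeros made up 2.87% of the 558 member values, beside 11.5% of all values, and touched 7 of 93 member features. Mrpl4 and Tomm20l each had 4 zeros on their single feature and were not tested. The 2 measured values of Mrpl4 were -0.54 and 0.28 and those of Tomm20l 0.05 and -0.43. Mrpl21, Mrps17, Tomm20 and Tomm6 were tested on 2 sets. Mrpl21 was the least steady member, with values from -1.15 to 0.62 in those sets (mean -0.14 ± 0.54). Among single probes, 10 member probes were called higher and 15 lower, beside 32.7% of all 14343 probes called in either direction.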

How the data were processed

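The authors deposited 1 log2 ratio per feature and array, and the base was read from the values, whose largest is 6.643856, log2 of 100. How the scans were corrected for background and dye is not given in the sources used here. No channel intensities were used, so dim features could not be filtered and the number of arrays limits precision. Features were named from the platform annotation, and all 81 member genes matched RefSeq (GRCm38.p6) by gene identifier.

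The sign of the ratio was turned on Cy3 arrays (treated RNA in Cy3). A probe gave a set value where both arrays of the set were measured. A gene was the mean of its probes measured on all 6 arrays, or else of those with 2 sets. Set means were tested against 0 with lmFit and eBayes (limma 3.58.1, R 4.3.3), adjusted over 10088 genes (Benjamini-Hochberg, threshold 0.05). Promoters were searched for exact motifs on both strands; the NRF1 motif was shortened to 7 letters after its matches were known. The procedure was tested on simulated data.

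The members and lists were chosen with earlier results of these data known. Values on all arrays were given for the 8 largest rises and 8 largest falls that passed and for the highest and lowest gene of each group; others were added after their values were seen. The plan was to name up to 2 rises and 2 falls from each list, and further genes were named from some lists. Alternatives covered zeros, replicate unit, normalization, dye orientation, single probes and leaving out sets; leaving out members with a dye term was added after seeing the data.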

Additional observations from a re-analysis of the deposited data

Results flagged for a closer look

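Over the 6 arrays, 2 of 81 tested quantities (79 member genes and 2 group medians) had 1 array far from the rest, where chance marks about 1 in 20. Mrpl3, a large-subunit protein, stood at 0.46 on the Cy3 array of set 1, while its other 5 values lay between -0.37 and -0.09. Mrpl49, also of the large subunit, stood at 0.20 on the Cy5 array of set 3, with the others between -0.15 and -0.06. Neither gene passed the test (adjusted p = 0.214 and 0.496).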

How the results depend on the processing

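Leaving out 1 set gave 2033 to 3381 genes called (3449 with all sets), 2 to 8 members higher (13) and 6 to 15 lower (16). On Cy3 arrays alone 8 members were lower, and 23.7% of all genes tested were called, beside 34.2% with all arrays. The ribosome and import medians were then -0.014 and 0.033, and on Cy5 arrays alone -0.12 and -0.064. Mrpl20 (-0.013) and Tomm70a (-0.012) changed sign on Cy5 arrays alone and Mrps18b (-0.072) on Cy3 arrays alone; the cause was not tested. Of 255 values of the 20 named genes under the alternatives, 40 lost the call, among them these 3 and 19 on leaving out a set, and 2 gained it. Mrps6, Mrpl30, Mrpl34, Mrpl18, Mrpl42 and Mrps34 kept direction and call in all 12 analyses of genes. The ribosome median minus the import median ran from -0.065 to -0.011 under the other alternatives and was 0.0066 over single probes. Named genes with several probes have no value under single probes.

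Whether the set numbers pair the arrays was not tested. Deviations of same-numbered arrays correlated weakly, with positive r of 0.256, 0.212 and 0.0999, and 5 of 6 arrays correlated best with their own number. With the set number as a replicate block 15 members were higher and 18 lower of 3635 genes called, and without it 16 and 20 of 3781. Fewer than 6 measured arrays limited 4 members to 2 sets.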
